A study of Homo sapiens with 17 samples.

Results

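Distal HNRNPU sites at active enhancers were defined as HNRNPU peaks that lay away from the ends of protein-coding genes and carried both enhancer histone marks in control cells. HNRNPU, also called SAF-A, is an abundant nuclear protein that binds RNA and DNA and is a component of the nuclear matrix. Enhancers are regulatory elements that act at a distance from promoters. H3K4me1 marks enhancers in general, H3K27ac marks those that are active, and active enhancers are themselves often transcribed by RNA polymerase II.

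A member was a summit, the base of highest signal in a called peak, of the first HNRNPU library with a summit of the second HNRNPU library within 250 bp. It lay on chromosomes 1 to 22 and more than 1000 bp from either end of every RefSeq protein-coding gene. It also had a summit within 500 bp in each of the 4 histone lists of control cells. Of 34593 HNRNPU summits of the first library on these chromosomes, 16737 were found again in the second library, 9711 of those were distal, and 4521 were members. The HNRNPU and control histone lists therefore chose the members, and their values are given as a description without a test.

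All 17 libraries were made by CUT&Tag, in which an antibody directs a transposase to its target on chromatin, from H1 cells, a human embryonic stem cell line. HNRNPU was profiled in 2 libraries of untransfected cells. H3K4me1 and H3K27ac were each profiled in 2 libraries of cells given shHNRNPU#1, 2 of cells given shHNRNPU#2, and 2 of cells given shLUC, an shRNA against luciferase that served as the control. For POLIIS2P, a name that read literally stands for RNA polymerase II phosphorylated at serine 2, there were 1 library of shHNRNPU#1 cells and 2 of shLUC cells. Cells that received an shRNA had been transduced with virus and selected with puromycin. All libraries came from a single cell line, whether repeats were separate cultures is not stated, and p-values therefore measure only the spread between these libraries. The antibodies listed in the labels include neither H3K4me1 nor POLIIS2P, and the depth of the knockdown is not measured by these assays.

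The sources were in conflict for the 4 shLUC histone libraries. The 2 libraries titled H3K4me1 shLUC have lists that carry the name H3K27ac, and the 2 titled H3K27ac shLUC have lists that carry the name H3K4me1. The former held 62449 and 90914 summits and the latter 179137 and 181357. Membership required all 4 and does not depend on which name is right, whereas values given for a control list by the name it carries, or for sites with H3K4me1 only, do depend on it. Because every member has a summit in these lists by construction, no difference between shHNRNPU and shLUC cells in a histone mark can be measured over the members. Read depth is unknown. The lists held 147145 to 214333 summits for H3K4me1 and 40487 to 85142 for H3K27ac in shHNRNPU cells, 34649 and 35526 for HNRNPU, and 79949 to 87456 for POLIIS2P. By length, the control lists named H3K4me1 lay within the range of H3K4me1 in shHNRNPU cells. The control lists named H3K27ac were nearer in length to those of H3K27ac, so the lengths go with the list names and not with the titles. As a check of the cell type, an H3K27ac summit lay within 1000 bp of a gene end of POU5F1 in 3, of SOX2 in 2, of NANOG in 1 and of LIN28A in 3 of the 4 H3K27ac shHNRNPU libraries. The NANOG summit was at the 36.9 percentile by score in its list. No share over all genes is given beside these mixed counts, so they do not establish the cell type, which is taken from the labels.

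Some members that are distal to the annotated gene ends lay at start sites inside a gene or at noncoding genes. Starts listed by RefSeq for GRCh38.p14 were compared with the 4303 members on chromosomes that have listed starts, and 449 of them (10.4%) lay within 250 bp of one. Among all distal HNRNPU sites the share was 9.88%. The start was that of a protein-coding gene for 294 members (6.83%). The list of starts is incomplete, so these shares are lower limits. Start windows of 6 genes, each from 250 bases before to 50 bases after a listed start, are printed 5′ to 3′ on the gene's strand because they show the DNA under members of this kind. They were chosen after their values were seen. Capitals mark the GC box (GGGCGG), the CCAAT box (CCAAT) and the E-box (CACGTG), read on either strand, and the E-box was in none of the 6.
MYADM (chr19:53867633-53867932, plus strand): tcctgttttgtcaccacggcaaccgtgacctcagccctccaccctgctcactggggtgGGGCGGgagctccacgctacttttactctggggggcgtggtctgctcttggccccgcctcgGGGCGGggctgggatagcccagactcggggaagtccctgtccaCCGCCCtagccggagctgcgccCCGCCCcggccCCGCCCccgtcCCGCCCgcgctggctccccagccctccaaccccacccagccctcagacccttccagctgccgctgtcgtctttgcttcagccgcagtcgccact
ADAMTS10 (chr19:8592167-8592466, minus strand): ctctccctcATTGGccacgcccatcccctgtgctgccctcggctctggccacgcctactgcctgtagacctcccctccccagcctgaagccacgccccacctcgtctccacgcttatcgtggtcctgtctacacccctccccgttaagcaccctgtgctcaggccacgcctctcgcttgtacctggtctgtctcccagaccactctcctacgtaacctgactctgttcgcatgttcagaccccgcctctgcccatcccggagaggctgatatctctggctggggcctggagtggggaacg
RTN4 (chr2:55050549-55050848, minus strand): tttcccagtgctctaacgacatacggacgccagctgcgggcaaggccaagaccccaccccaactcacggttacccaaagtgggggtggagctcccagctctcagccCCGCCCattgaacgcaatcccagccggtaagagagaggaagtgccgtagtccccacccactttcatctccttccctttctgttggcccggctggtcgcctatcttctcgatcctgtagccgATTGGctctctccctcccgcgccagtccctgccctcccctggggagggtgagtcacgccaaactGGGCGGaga
MALAT1 (chr11:65497488-65497787, plus strand): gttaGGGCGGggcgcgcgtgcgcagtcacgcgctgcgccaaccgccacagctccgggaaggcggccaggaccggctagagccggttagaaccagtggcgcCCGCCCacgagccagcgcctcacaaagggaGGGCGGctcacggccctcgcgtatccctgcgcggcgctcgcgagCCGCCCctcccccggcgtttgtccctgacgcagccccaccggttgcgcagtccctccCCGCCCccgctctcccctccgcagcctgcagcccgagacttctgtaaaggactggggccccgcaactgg
TET1 (chr10:68600224-68600523, plus strand): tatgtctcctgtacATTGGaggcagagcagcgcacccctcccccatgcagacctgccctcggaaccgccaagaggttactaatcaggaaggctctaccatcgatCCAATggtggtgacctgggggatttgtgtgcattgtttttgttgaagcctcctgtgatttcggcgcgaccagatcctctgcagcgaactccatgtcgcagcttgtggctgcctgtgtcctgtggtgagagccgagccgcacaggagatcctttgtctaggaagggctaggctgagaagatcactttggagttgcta
CBX5 (chr12:54259537-54259836, minus strand): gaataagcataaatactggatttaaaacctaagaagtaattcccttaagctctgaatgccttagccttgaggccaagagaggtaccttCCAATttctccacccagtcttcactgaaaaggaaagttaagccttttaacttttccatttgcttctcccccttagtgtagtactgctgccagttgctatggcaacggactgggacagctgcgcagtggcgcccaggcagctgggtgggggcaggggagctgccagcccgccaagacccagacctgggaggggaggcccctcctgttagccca

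The sequence from MYADM, a gene for a myeloid-associated membrane protein, had 6 GC boxes and was 71.0% G and C. Its member lay 209 bases before the start and stood at the 99.96 and 99.94 percentile of the HNRNPU lists, where a percentile is the rank of a summit's score within its own list. That of MALAT1, a long noncoding RNA kept in the nucleus, had 5 GC boxes and a G and C content of 73.7%. The member at RTN4, the gene for the reticulon protein Nogo, lay 18 bases after an internal start with 2 GC boxes and 1 CCAAT box. The windows of TET1, an enzyme that oxidizes methylated cytosine, and of CBX5, the heterochromatin protein HP1α, had no GC box, with 2 CCAAT boxes in the former and 1 in the latter. They held 11 and 4 CpG dinucleotides, against 23 in MYADM and 37 in MALAT1. The member at ADAMTS10 lay 226 bases before an internal start, in a window with 1 CCAAT box and no GC box. The 6 members had H3K27ac and H3K4me1 summits in all 4 shHNRNPU libraries of each mark and POLIIS2P summits in all 3 libraries. Of all 449 members at a listed start, 61.0% had H3K27ac in all 4 and 86.9% had POLIIS2P in all 3.

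In 400 listed start windows that held a member, a GC box was found in 68.3%, a CCAAT box in 45.0%, an E-box in 9.50%, a TATA box (TATAAA) in 2.50% and an ETS core (CGGAAG) in 32.0%. Over all 33551 windows the shares were 45.0%, 34.4%, 7.15%, 11.6% and 19.4%. In 5193 windows with another HNRNPU site they were 77.0%, 41.7%, 10.5%, 3.33% and 41.3%. Windows with a member thus lay between the other groups in the GC box and the ETS core. Their median G and C content was 64.7%, against 66.3% at other HNRNPU sites and 58.7% over all windows. These matches are descriptions of the letters and not of binding.

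Members had H3K4me1 in nearly every shHNRNPU library and H3K27ac in most of them. An H3K4me1 summit lay within 500 bp of 94.7% and 96.3% of members in the shHNRNPU#1 libraries and of 97.9% and 99.0% in the shHNRNPU#2 libraries (mean 97.0% ± 1.88, SD, n = 4). For H3K27ac the shares were 76.9% and 67.8% with shHNRNPU#1 and 88.1% and 91.2% with shHNRNPU#2 (mean 81.0% ± 10.7, SD, n = 4). The lowest H3K4me1 share was above the highest H3K27ac share, and shHNRNPU#2 libraries were above shHNRNPU#1 libraries for both marks. The difference between the marks was 16.0 percentage points (exact permutation test, two-sided, p = 0.0286, the smallest possible with 4 against 4 libraries). With all summits, all distal HNRNPU sites had H3K4me1 at 86.8% and H3K27ac at 54.3% on average. Active distal sites lacking HNRNPU, described below, had them at 90.0% and 64.0%. At all distal HNRNPU sites shHNRNPU#2 was likewise above shHNRNPU#1, with 89.3% against 84.4% for H3K4me1 and 63.2% against 45.3% for H3K27ac. Neither order was thus particular to members.

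The order of the marks depended on how many summits were used. With the 20000 highest-scoring summits of each list, H3K27ac was found at 57.4% and 53.7% of members with shHNRNPU#1 and 64.2% and 64.3% with shHNRNPU#2, and H3K4me1 at 48.6% and 49.1% with the former and 49.7% and 52.6% with the latter. The difference was then -9.91 points (exact permutation test, two-sided, p = 0.0286). H3K27ac lists of shHNRNPU#1 cells were also the shortest of the histone lists, with 51655 and 40487 summits against 75264 and 85142 for shHNRNPU#2. The part of list length in the difference between the shRNAs was not tested. Among the 20000 highest-scoring summits the shHNRNPU#2 shares were the higher ones as well, but an equal number of summits does not make depth equal.

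At single sites, 4145 members (91.7%) had H3K4me1 in all 4 shHNRNPU libraries, against 77.2% of all distal HNRNPU sites. H3K27ac was found in all 4 libraries at 2587 members (57.2%), against 31.5% of all distal sites. The choice of members by the same marks in control cells sets them apart from the other distal sites, so nothing is read from this contrast. A member was without H3K27ac in all 4 libraries in 109 cases and without H3K4me1 in 10. H3K27ac was present in both shHNRNPU#2 libraries and absent from both shHNRNPU#1 libraries at 354 members (7.83%), against 8.31% of all distal HNRNPU sites. The opposite pattern occurred at 10 members (0.221%), against 0.371%. With the 20000 highest-scoring summits the patterns were at 233 and 68 members. All 8 histone libraries had a summit at 2430 members (53.7%).

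POLIIS2P, which took no part in the choice of members, was found at most of them. A summit lay within 500 bp of 68.7% of members with shHNRNPU#1 (Wilson 95% bounds, 67.3% and 70.02%) and of 74.7% (bounds 73.4% and 75.9%) and 69.9% (bounds 68.5% and 71.2%) in the shLUC libraries. These bounds cover counting error only. The shHNRNPU#1 share was below that of both shLUC libraries. It was 3.62 points below their mean, which is less than the gap between the 2 shLUC libraries themselves. The shHNRNPU#1 list was also the shortest, with 79949 summits against 87456 and 85517, and the part of list length was not tested. With 1 library against 2 there is no test. POLIIS2P was present in all 3 libraries at 2755 members (60.9%), against 52.9% of all distal HNRNPU sites, and absent from all at 860 (19.0%). In each of the 3 libraries the share at members, 71.1% ± 3.18 on average (SD, n = 3), was above that of distal HNRNPU sites with H3K4me1 but without H3K27ac in the control lists so named (55.5%). It was also above that of distal HNRNPU sites without either mark (48.1%) and below that of HNRNPU sites at gene ends (88.9%). With 3 libraries these differences cannot pass an exact permutation test.

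The question whether active distal sites with HNRNPU differ from those without it was addressed with sites chosen by the control histone lists. These sites were then divided by the members and by the HNRNPU lists. Of 18102 distal summits of the first library titled H3K4me1 shLUC with a summit of the other 3 control histone libraries within 500 bp, 4456 lay within 500 bp of a member and 8512 had no HNRNPU summit of either library within 1000 bp. The 5134 sites in neither group were left out. Sites at members had thus passed the control histone lists both at the site and at the HNRNPU summit. Sites lacking HNRNPU had passed them at the site only. POLIIS2P was present at 70.7% ± 3.22 of sites at members and at 38.9% ± 1.76 of sites lacking HNRNPU (SD, n = 3). The difference was 31.9 points and had the same direction in all 3 libraries (exact sign-flip permutation test, two-sided, p = 0.25, the smallest possible with 3 libraries).

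H3K27ac in shHNRNPU cells was also found more often at sites with HNRNPU, at 81.0% ± 10.9 against 64.0% ± 14.0 (SD, n = 4). The difference was 18.7 and 20.3 points in the shHNRNPU#1 libraries and 16.1 and 12.9 points in the shHNRNPU#2 libraries. Its mean of 17.0 points could not reach significance with 4 libraries (exact sign-flip permutation test, two-sided, p = 0.13, the smallest possible). H3K4me1 was present at 96.9% of sites with and 90.0% of sites without HNRNPU, a mean difference of 6.86 points (exact sign-flip permutation test, p = 0.13). Over the 8 histone libraries of both marks the difference was 11.9 points (exact sign-flip permutation test, two-sided, p = 0.00781, the smallest possible), with the same sign in 8 of 8. Libraries of an shRNA may share cells, and all 8 were scored on the same sites, which already differed in control histone percentile. Sites at members had also passed the control histone lists a second time. The part of this choice in the difference was not tested. The p-value therefore measures only agreement between these libraries, with both marks counted together.

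**Figure D1:**
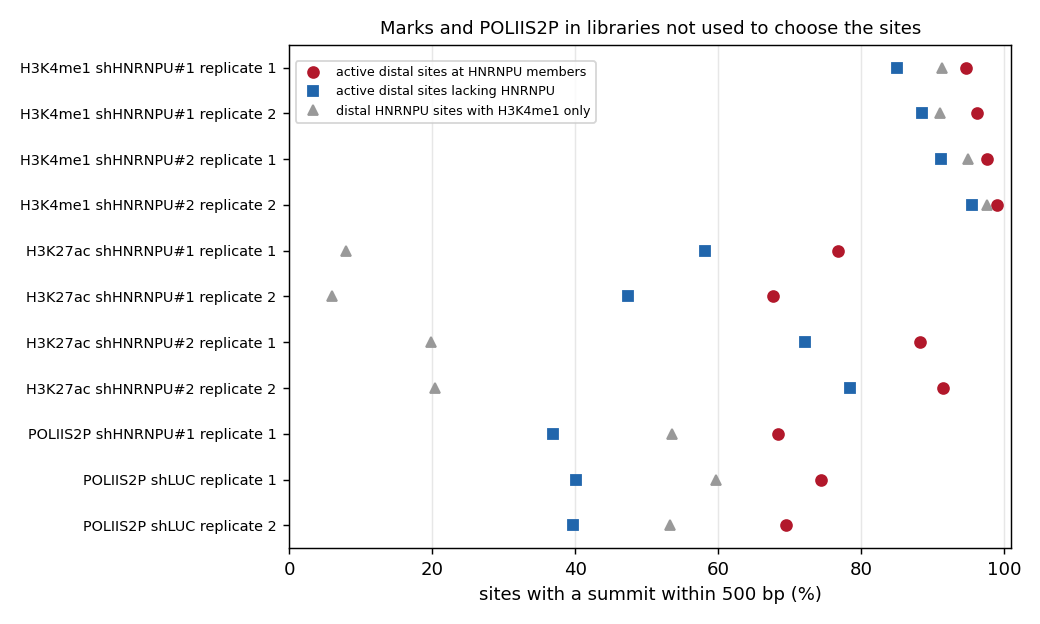
Share of sites with a summit within 500 bp (x axis, percent) in each of the 11 libraries that did not choose the sites. Circles are active distal sites at members (n = 4456), squares are active distal sites lacking HNRNPU (n = 8512) and triangles are distal HNRNPU sites with H3K4me1 only (n = 1846). The circle lies to the right of the square in every library.

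The sites with and without HNRNPU also differed in other respects, and the part of these in the differences was not tested. For sites with HNRNPU, the median percentile in the control histone lists was 82.4, against 60.2 for sites lacking HNRNPU, and 10.1% of the former lay within 250 bp of a listed start against 1.51%. In gene bodies lay 55.5% against 67.0%, and the median distance to a gene end was 23652 against 32003 bp. When all active distal sites were divided by control percentile into 4 bins of equal size and compared within them, the mean difference was 4.52 points for H3K27ac and 0.604 points for H3K4me1. With the 20000 highest-scoring summits of each list the differences were 29.3 and 30.9 points over all sites, and 8.85 and 4.45 points within the bins. With all summits the H3K4me1 difference was -0.859 and -0.338 points in the second and the third bin. In the lowest bin H3K27ac was present at 53.9% of sites with HNRNPU and 53.6% of sites without it, with differences of -6.19 to 4.50 points in the 4 libraries. In the highest bin the shares were 91.3% and 82.5%.

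For POLIIS2P the mean difference within these bins was 26.6 points. From the lowest to the highest bin, POLIIS2P was present at 63.8%, 68.9%, 68.1% and 73.8% of sites with HNRNPU and at 30.3%, 39.6%, 46.3% and 52.1% of sites without it. The values of the 3 libraries with and without HNRNPU did not overlap in any bin. The difference was 33.0 points among sites in gene bodies, 38.9 points among intergenic sites and 29.8 points among sites over 250 bp from a listed start.

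**Figure D2:**
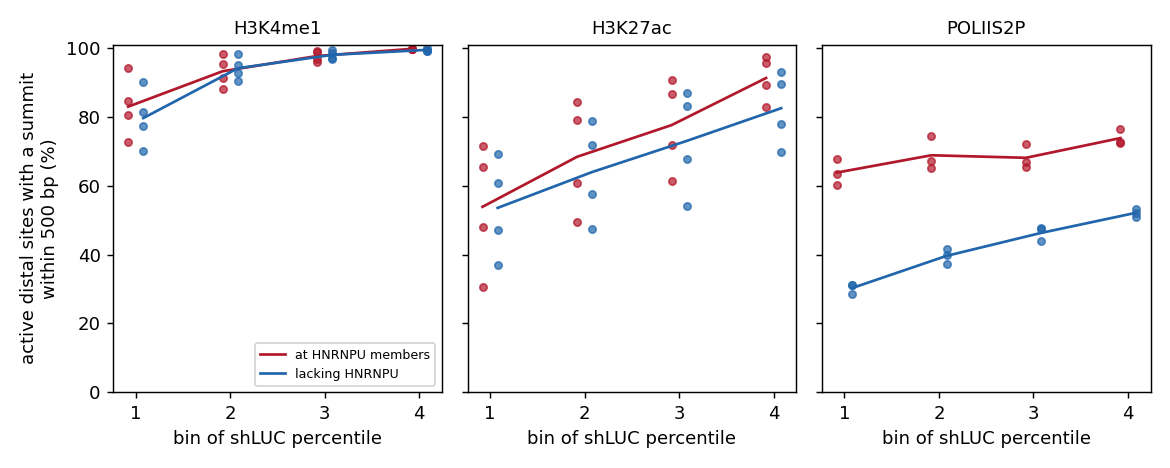
Share of active distal sites with a summit within 500 bp (y axis, percent) by bin of the mean score percentile in the control histone lists (x axis, 1 lowest). Points are single libraries and lines their means. For POLIIS2P the points with HNRNPU lie above those without it in every bin, whereas for H3K4me1 the points overlap in each.

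Among members, POLIIS2P was more frequent where the HNRNPU peak was stronger. In 4 bins of equal size by mean HNRNPU percentile, members had POLIIS2P at 55.6%, 63.6%, 73.8% and 91.4%, and no library of one bin overlapped those of the next. The corresponding H3K27ac shares were 77.0%, 78.3%, 80.8% and 87.8%, with an SD over 4 libraries of 7.24 to 12.7 points. The share of members at a listed start went from 4.03% to 21.2% over the same bins. Ordered by control histone percentile instead, H3K27ac went from 64.7% to 95.0%, while POLIIS2P was at 67.7%, 69.2%, 68.1% and 79.3%. These are descriptions over members of the same libraries, and depth and local chromatin were shared by the points.

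**Figure D3:**
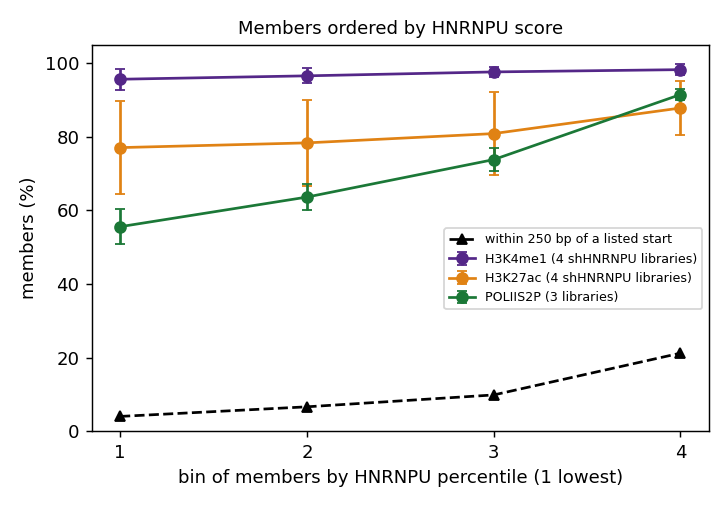
Share of members (y axis, percent) with a summit of each antibody within 500 bp, and within 250 bp of a listed start, by bin of the mean HNRNPU percentile (x axis). Points are means over 4 libraries for the histone marks in shHNRNPU cells and 3 libraries for POLIIS2P, and bars are 1 SD. POLIIS2P goes from 55.6% to 91.4%.

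At members within 250 bp of a listed start, POLIIS2P was present at 89.8% in the shHNRNPU#1 library and 93.8% and 91.1% in the shLUC libraries. At the 3854 other members on those chromosomes the shares were 66.7%, 73.0% and 68.0%. H3K27ac was also more frequent at starts in each of the 4 shHNRNPU libraries, by 3.75 and 5.24 points with shHNRNPU#1 and 3.22 and 0.540 points with shHNRNPU#2. H3K4me1 differed by -1.37 to 0.372 points.

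POLIIS2P at members differed by position along genes. Members were in the body of a protein-coding gene in 55.7% of cases (n = 2518) and intergenic in 44.3% (n = 2003). POLIIS2P was found at 82.8% ± 2.88 of the former and 56.3% ± 3.56 of the latter (SD, n = 3). By distance from the nearest gene end the share was 88.9% at 1000 to 5000 bp, 83.4% up to 20000 bp, 73.2% to 50 kb, 62.0% to 100 kb and 41.0% beyond. H3K27ac was at 76.1%, 81.0%, 82.7%, 81.8% and 82.5% in the same bins. The median distance to a gene end was 23335 bp, against 17298 bp for the distal HNRNPU sites that were not members.

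The peaks of all antibodies lay close to the HNRNPU summit. For the histone marks this is largely built in, because a member needed a control histone summit within 500 bp. In the control lists that chose the members, the medians were 68 and 65 bp (titled H3K4me1) and 60 and 59 bp (titled H3K27ac). Distances at other sites are not given here, so the nearness is a description. Among members with a summit within 1000 bp, the median distance was 60, 58, 60 and 58 bp for H3K4me1 and 73, 77, 68 and 68 bp for H3K27ac, in the order shHNRNPU#1 and shHNRNPU#2. The H3K4me1 medians were all below the H3K27ac medians, and the difference was -12.5 bp (exact permutation test, two-sided, p = 0.0286, the smallest possible). For POLIIS2P the medians were 58 bp in the shHNRNPU#1 library and 61 and 59 bp in the shLUC libraries. Across the 11 libraries 58.0% to 67.4% of these summits were within 100 bp. The broad distribution of histone marks makes a summit a coarse measure of their position.

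**Figure D4:**
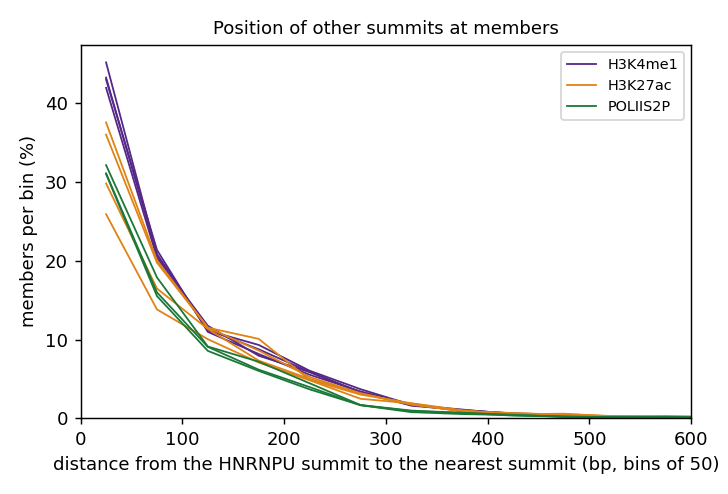
Share of members (y axis, percent of all 4521) by distance from the HNRNPU summit to the nearest summit of a library (x axis, bp, in bins of 50). Each line is 1 library of shHNRNPU histone marks or of POLIIS2P, and each is highest in the first bin.

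The members lay mostly alone along the chromosomes. When members up to 12.5 kb apart were joined, 4125 stood alone, 167 formed pairs, 18 groups of 3 and 2 groups of 4. They had 3427 nearest protein-coding genes, of which 746 were nearest to 2 or more members and 19 to 5 or more. Among the genes nearest to most members, NTM, which encodes the adhesion protein neurotrimin, had 8 members, of which 2 had H3K27ac in all 4 libraries, and MMP16, a membrane-bound metalloproteinase gene, had 7.

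A further 4 genes had 6 members each. Those nearest to MYC, the transcription factor gene, lay 51310 to 601146 bp beyond it on chromosome 8, and 3 of them were inside PVT1, a long noncoding RNA gene. Of the 6 members, 5 had H3K27ac in all 4 shHNRNPU libraries and 5 had POLIIS2P in all 3. The member at position 127810330 in PVT1 was at the mean HNRNPU percentile of 99.5 and at the 92.0 to 98.5 percentile of H3K27ac. ATXN7L1 and FOXN3, the latter a forkhead factor gene, had POLIIS2P in all 3 libraries at 4 and 5 of their 6 members.

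The 6 members nearest to PRSS58, a serine protease gene, differed from these. All were inside TRB, the T cell receptor beta locus, at chr7:142323873 to 142420891. None had POLIIS2P in all 3 libraries, and 4 had it in none. All had H3K4me1 in all 4 shHNRNPU libraries, and 2 had H3K27ac in all 4. At the T cell receptor gamma locus TRG and its antisense transcript, a locus looked at after the first was seen, 4 members were found at chr7:38319046 to 38370062, of which 2 had POLIIS2P in all 3 libraries and 1 in none. LMNA, the lamin A gene, had 3 members in its body, all with POLIIS2P in all 3 libraries, and that at chr1:156130353 was at the 99.3 to 99.6 percentile of H3K27ac. TCF7L1, a repressor of WNT targets, also had 3.

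A member lay within 50 kb of 31.5% of all 19122 protein-coding genes. The share was 14 of 32 pluripotency genes (43.8%), 18 of 33 genes of the signalling pathways that act on pluripotent cells (54.5%) and 10 of 28 genes for nuclear architecture and enhancer regulators (35.7%). It was 4 of 20 early lineage regulators (20.0%). Ribosomal protein genes, included for comparison, reached 13 of 24 (54.2%), a share as high as that of the signalling list. These shares were not tested. Members near signalling genes included 3 each at FGF2, ID1, TCF7L1 and IGF1R, 1 at NODAL and 1 at LEFTY2. Signalling genes without a member included LEFTY1, FGF4, BMP4, SMAD3, SMAD4 and SMAD7. A longer gene has a wider window, and gene length was not accounted for. No member lay within 50 kb of POU5F1, SOX2 or NANOG.

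Of the 14 pluripotency genes with a member, 6 had one with H3K27ac in all 4 shHNRNPU libraries when the nearest member was taken. Over all members the share was 57.2%, and the count at these genes is not read as a trait of them. For DNMT3B, a de novo DNA methyltransferase, the nearest member lay in the gene body at chr20:32807841. Its H3K27ac percentiles were 99.5 and 99.0 with shHNRNPU#1 and 99.0 and 99.5 with shHNRNPU#2, and its HNRNPU percentiles were 89.7 and 85.0. The member near EPCAM, an adhesion molecule of epithelial and pluripotent cells, was 24125 bp from that gene at chr2:47345186, and 112 bp from the listed start of the long noncoding RNA EPCAM-DT. It reached H3K27ac percentiles of 99.8, 98.1, 99.9 and 99.7 and POLIIS2P percentiles of 94.3 to 96.3. Both sites were near the top of their lists under either shRNA.

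KLF4, a reprogramming factor, had a member 46232 bp away at chr9:107438620. Its H3K27ac percentiles were 91.8 and 97.6 with shHNRNPU#1 and 97.9 and 98.9 with shHNRNPU#2. POLIIS2P there was at the 16.0 percentile in the shHNRNPU#1 library and the 12.4 percentile in 1 shLUC library, and no summit was called in the other. FZD7, a WNT receptor, had a member 37652 bp away at chr2:201996203 with H3K27ac at 86.1, 95.1, 91.1 and 92.9 and H3K4me1 at 99.4 or above. The member near SOX11, a neural SOX factor, was 24883 bp from that gene and 201 bp from the listed start of a long noncoding RNA. It had H3K27ac at 80.0, 74.8, 95.7 and 94.7. At the site 20283 bp from FOXH1, the DNA-binding partner of SMAD proteins, with PPP1R16A as the nearest gene, H3K27ac was at 19.7, 61.6, 80.9 and 56.7. At these sites a strong histone peak could stand beside weak POLIIS2P, as at KLF4.

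At the other 8 genes the nearest member had H3K27ac in fewer libraries. PODXL, a sialomucin on the surface of pluripotent cells, had 3 members, and the nearest at chr7:131513736 had H3K4me1 above the 99.9 percentile in all 4 shHNRNPU libraries. H3K27ac was called in neither shHNRNPU#1 library and stood at 91.6 and 93.8 with shHNRNPU#2. The other 2 members of PODXL, 35281 and 48859 bp away, had H3K27ac in all 4 libraries. FOXD3, a forkhead factor, had a member 5534 bp away at chr1:63317033 with H3K27ac under shHNRNPU#2 alone, at 80.6 and 89.2. LIN28A, an RNA-binding protein that blocks let-7 maturation, had H3K27ac in 1 library of each shRNA, at 76.3 and 51.6, and POLIIS2P at 99.5 to 99.7 at chr1:26419043. CDH1, which encodes E-cadherin, had H3K27ac in 3 libraries. The members nearest to SALL4, ZFP42 and TDGF1, which encode 2 zinc finger factors and a Nodal co-receptor, had it in 1 shHNRNPU#2 library each. They lay 15037 bp from SALL4 with ATP9A as the nearest gene, 26954 bp from ZFP42, and 28502 bp from TDGF1 with LRRC2 as the nearest gene. That near SALL4 was inside ATP9A, only 1096 bp from an end of ATP9A and from a listed start. The member in ETV5, an ETS factor gene, had H3K27ac in none at chr3:186080069, with H3K4me1 at 41.1, 59.1, 65.0 and 54.6. The ETV5 member lay 260 bp from a listed start.

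**Figure D5:**
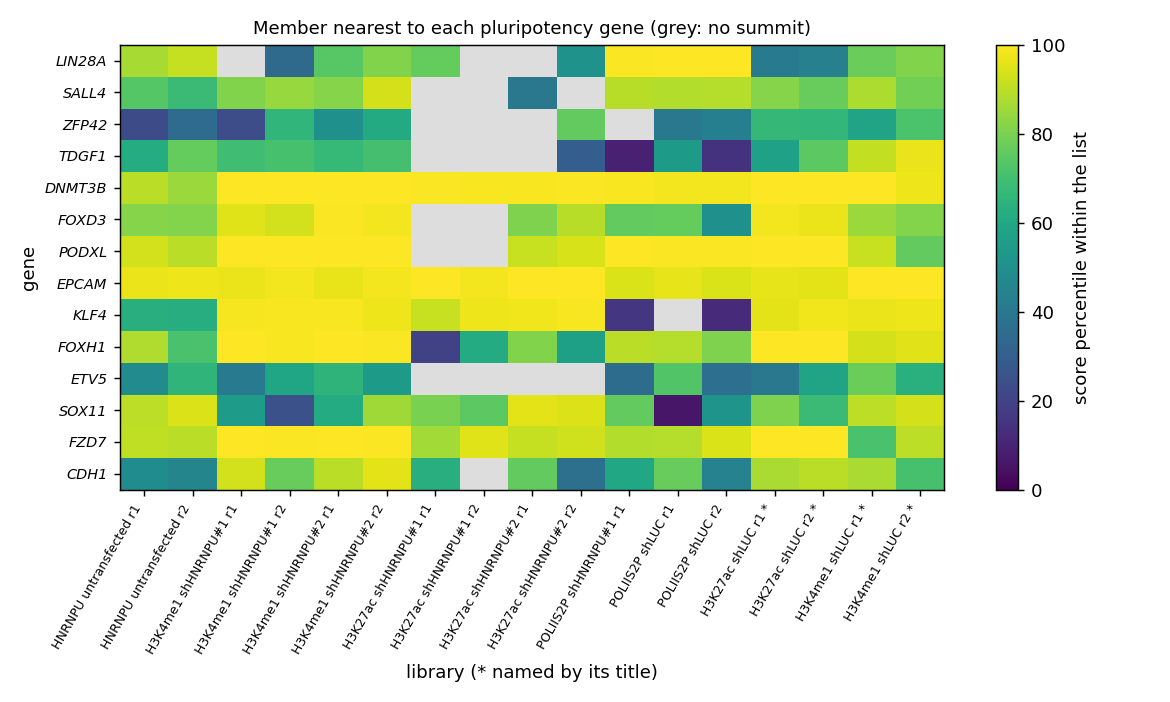
Score percentile within its list (colour) of the summit within 500 bp of the member nearest to each pluripotency gene (rows) in each of the 17 libraries (columns). Grey marks the absence of a summit, which is confined here to H3K27ac in shHNRNPU cells apart from 1 H3K4me1 and 2 POLIIS2P cells. Control histone columns carry the antibody of the sample title, which conflicts with the list name, so no change after an shRNA can be read from them.

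The 5 members with the strongest HNRNPU peaks had mean percentiles of 99.9 or more in the HNRNPU lists. They lay at chr3:125916168 in a long noncoding RNA gene, at chr11:3422953 and chr11:67805770 between genes, at chr16:84014271 in SLC38A8, an amino acid transporter gene, and at chr1:6962928 in CAMTA1, a transcription activator gene. All 5 had POLIIS2P in all 3 libraries, at the 92.4 percentile or above. H3K27ac was present in all 4 shHNRNPU libraries at 4 of them, and at CAMTA1 in 3, where its percentiles were 24.0, 80.1 and 81.9. A strong HNRNPU peak thus stood beside a middling H3K27ac peak at CAMTA1.

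The members with the strongest POLIIS2P peaks lay at an internal start of ADAMTS10, which encodes a secreted metalloproteinase, at chr7:104984269 in the noncoding gene LINC01004, at chr11:3422953, at chr12:6938142 in ATN1, a corepressor gene, and at chr5:12662088 in the noncoding gene LINC01194. All 5 had both histone marks in all shHNRNPU libraries. The H3K27ac percentiles at LINC01004 were 99.7, 99.6, 99.9 and 99.7, and those at ATN1 were 93.8, 72.7, 91.4 and 82.0.

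Among the 109 members without H3K27ac in any shHNRNPU library, those with the highest control values lay in ADNP and HAAO. ADNP encodes a chromatin-binding homeodomain protein, and its member at chr20:50929551 was at 98.5 and 96.8 in the control lists named H3K27ac. H3K4me1 was there at 98.6 to 99.8 in shHNRNPU cells and POLIIS2P at 97.3 to 99.0. HAAO, an enzyme of tryptophan breakdown, had control values of 90.6 and 94.4 at chr2:42770711 and H3K4me1 at 99.4 to 99.8. The next were in SDK1 and EDIL3 and in the region of UFM1. These members were picked for these values, which are therefore a description and no measure of a change after the shRNAs.

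The 10 members without H3K4me1 in any shHNRNPU library included sites in ANK3, ABCA7 and CADM2 and near JRKL and SPEF2. That near JRKL at chr11:96411438 had H3K27ac at 99.4, 98.7, 99.4 and 99.5, and its control percentiles in the lists named H3K4me1 were 10.9 and 49.0. The member in CADM2, a synaptic adhesion gene, had H3K27ac at 74.8, 75.8, 93.5 and 95.9. The member near SPEF2 had a summit in no shHNRNPU histone library and in no POLIIS2P library.

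Around the limits of the rule, there were 291 members with the second HNRNPU summit 200 to 250 bp away and 161 sites at 250 to 300 bp that met the other criteria. For the histone summits 74 members were at 450 to 500 bp and 43 sites at 500 to 550 bp. For the gene ends 38 members were at 1000 to 1100 bp and 38 sites at 900 to 1000 bp.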

How the data were processed

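For each library the authors deposited 1 list of summits, each with a score that was read as the peak caller's −log10 q-value or p-value from its lowest values. The submitters' processing notes name cutadapt, Bowtie2, SAMtools, MACS2 and deepTools, and the build hg38. The control library for peak calling is not given in the sources used here. The authors also deposited 48095 merged intervals for HNRNPU, each 400 bp long, and 99.0% of members were in one. The score is comparable only within a list and was used as a percentile. The paper listed with the series describes other cells and was not used as a method.

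Groups followed the sample titles. A mark was present at a summit within 500 bp. Shares were compared over libraries with exact permutation tests (SciPy 1.17.1, NumPy 2.4.6, pandas 2.3.3), and the functions were tested on simulated data. Gene ends and starts came from RefSeq tables, and starts on chromosome 8 were not analysed here. Named members were the nearest to pluripotency genes, the 5 highest in HNRNPU and in POLIIS2P, those of the genes with most members, including ties at 6 and leaving out 1 item that is not reported here, and the 5 without each mark that were highest in control lists. Members, lists and rules were chosen with earlier results of these data known. No list was a copy of its own repeat, since 1.68% to 8.74% of a repeat's summits had the identical base in its partner. Lists of different antibodies or shRNAs were not compared in this way, and POLIIS2P in shHNRNPU#1 cells had no repeat.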

Additional observations from a re-analysis of the deposited data

How the results depend on the processing

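The difference between H3K4me1 and H3K27ac shares at members was -9.91 points with the 20000 highest-scoring summits and -6.21 points with the 40000 highest (exact permutation p = 0.0857, chosen after seeing the data), but 25.7 points with scores of at least 5 (exact permutation p = 0.0286). The cause was not tested, and list length and stringency change together in these settings. Leaving out 1 library gave 11.6 to 19.4 points, and the summit distance between marks gave -13.7 to -10.7 bp, with p = 0.0571 in each exact permutation test, the minimum for 3 against 4 libraries. With the replicate block, which pairs libraries of the same shRNA and repeat, these differences were again 16.0 points and -12.5 bp, each with an exact sign-flip permutation p of 0.13, the smallest possible for 4 pairs. Same-numbered libraries of the 2 marks did not deviate together over members (correlations of -0.0124 to 0.00311). As the antibodies differ, this cannot decide whether such libraries shared cells or a batch. With scores of at least 5 there were 2092 members, against 4521. The number of members was 3106 to 4902 under the other 8 alternatives. The mean differences between sites with and without HNRNPU kept their sign under all alternatives run. Within bins of the control percentile they were 4.52 points for H3K27ac and 0.604 for H3K4me1 (exact sign-flip permutation p = 0.25, with libraries of both signs). They were 2.56 for both marks (exact sign-flip permutation p = 0.0156) and 26.6 for POLIIS2P. With the 20000 highest summits they were 29.3, 30.9, 30.1 and 35.5 points, with those summits within bins 8.85, 4.45, 6.65 and 29.6 points, and with scores of at least 5 24.7, 11.4, 18.0 and 38.6 points. Leaving out 1 library gave 15.9 to 18.4 points for H3K27ac, 5.90 to 7.99 for H3K4me1, 10.7 to 13.1 for both and 30.7 to 32.9 for POLIIS2P. The POLIIS2P difference by condition was -1.26 points with the 20000 highest summits and -6.02 to -1.22 points with 1 library left out. Depth is unknown, and a summit that was not called is not evidence that the mark was absent.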
